A study of Mus musculus with 2 samples.

Results

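GPR50 is an orphan receptor of the melatonin receptor family, and its gene was examined together with genes that make, carry, sense or break down serotonin. The set comprised 10 genes, chosen with earlier results of these data known. Its members were the probe sets annotated to 1 of these symbols alone. These were 12 probe sets of 9 genes, out of 45101 probe sets on the array. *Htr2a*, a serotonin receptor gene, had no probe set listed with its symbol alone. *Gpr50* and *Tph2* were chosen for the set because of their pattern on these same arrays, so that their differences are a description and not a test.

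RNA came from perigonadal WAT of female C57BL/6 mice, 30 weeks old, fed a HFD and fasted overnight before harvest. PeriA Tg mice were heterozygous for human perilipin A under the aP2 promoter/enhancer, which directs expression to adipocytes, and WT mice were littermates without the transgene. RNA of 3 mice per genotype was combined and hybridised to 1 array, so that no value has an error over mice and no difference could be tested. Values are the authors' signals, the brightness of a probe set on a linear scale, and the signal log ratio is log2 (Signal of Tg/Signal of WT).

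Serotonin is made from tryptophan by tryptophan hydroxylase and aromatic amino acid decarboxylase, is taken up by a membrane transporter, and is broken down by monoamine oxidases. The hydroxylase has a form of peripheral tissues, TPH1, and a form known from serotonin neurons, TPH2. Serotonin that circulates is known to act on fat through its receptors, where it restrains thermogenesis and affects lipolysis. GPR50 shares sequence with the melatonin receptors without binding melatonin, and it is best known from the pituitary and the hypothalamus.

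A probe set was taken to be near background when both of its signals were under 98.2, the median signal over both arrays. By this measure 4 of the 9 genes (*Gpr50*, *Tph2*, *Maoa* and *Maob*) passed, with a signal of at least 98.2 on either array, and the other 5 genes (*Tph1*, *Ddc*, *Slc6a4*, *Htr2b* and *Mtnr1a*) were near background on both. As a further guide to background, 80 probe sets of olfactory and vomeronasal receptors, genes of the nose, had a median signal of 15.2 in WT against 11.4 in Tg, with a 95th percentile of 67.1 in WT against 63.6 in Tg. Of the 4 genes that passed, 2 had a signal log ratio under -0.3, against 16.9% of 11587 genes that passed, and 0 were over 0.3, against 16.6%. Nothing is read from these counts, since *Gpr50* and *Tph2* were chosen on the same contrast. In the plot of signals by probe set, the lines of these genes begin far above the filter in WT, while those of *Htr2b* and *Mtnr1a* span signals under it.

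**Figure D1:**
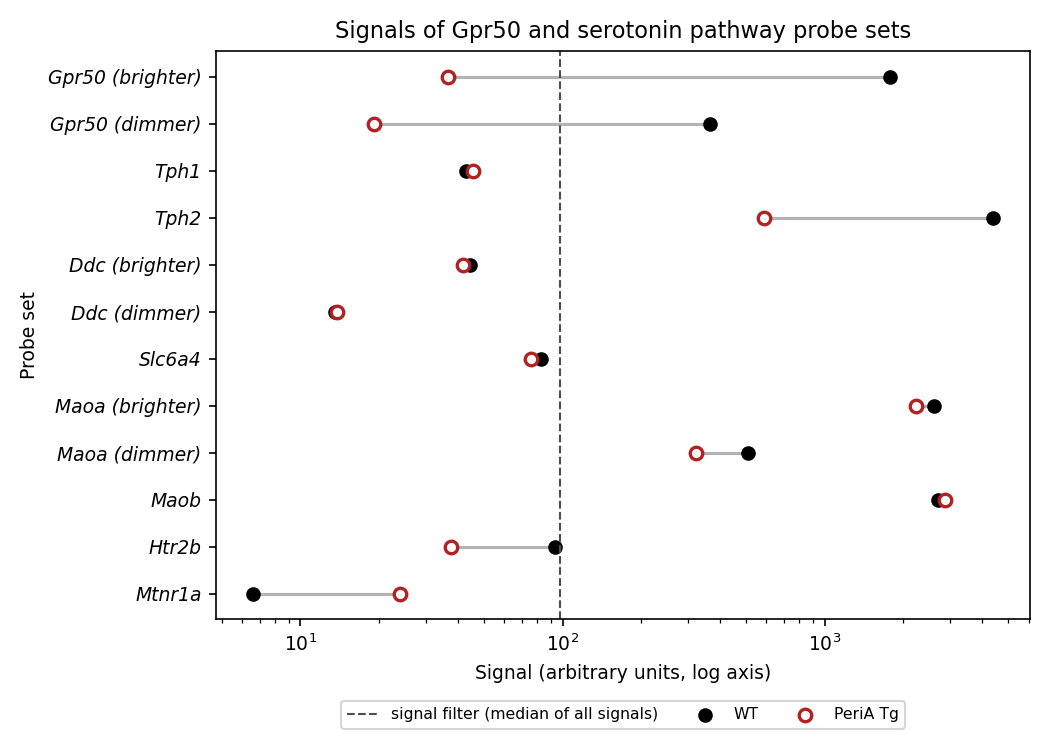
Signals of all 12 probe sets, with WT as filled and PeriA Tg as open circles on a log axis, 1 array of pooled RNA per genotype. The dashed line is the filter at 98.2: both *Gpr50* probe sets lay above it in WT and below it in Tg, *Tph2* lay above it in both, and 6 probe sets lay below it in both.

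*Gpr50*, the orphan receptor gene, lies on chromosome X at 71663667 to 71669257 (GRCm38.p6). The brighter of its pair of probe sets gave a signal of 1778.5 in WT against 36.4 in Tg, a signal log ratio of -5.61. Its dimmer probe set had 366.5 in WT against 19.0 in Tg, a signal log ratio of -4.27. Both Tg signals lay under the 95th percentile of the olfactory and vomeronasal receptors, whereas both WT signals lay above all 80 of them, the brightest of which had 84.9 in WT. With Tg signals raised to a floor of 56.9, the 40th percentile of all signals, WT was at least 31.3-fold higher on the brighter probe set and at least 6.44-fold on the dimmer one. The WT signal of the brighter probe set was above 90.7% of all signals of its array and the Tg signal above 31.8%.

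*Tph2*, which encodes the tryptophan hydroxylase of serotonin neurons, lies on chromosome 10 at 115078641 to 115185022. Its only listed probe set gave 4382.7 in WT against 587.2 in Tg, a signal log ratio of -2.90 or 7.46-fold higher in WT. Unlike *Gpr50*, it stayed above the filter in Tg, and the floor does not alter its value. No other listed probe set reads this gene, and where its probes lie was not analysed here. Whether this probe set reads the *Tph2* transcript in fat was not tested, and all values given for *Tph2* are those of 1 probe set annotated to it. *Tph1*, the hydroxylase gene of peripheral tissues, had 42.9 in WT against 45.6 in Tg, both under the 95th percentile of the olfactory and vomeronasal receptors.

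The sequences just before the annotated starts of *Gpr50* and *Tph2* are shown, since these are the members with different signals, together with that of *Maoa*, whose brighter probe set lay within 0.3 of no difference. They span 250 bases each on GRCm38.p6 (RefSeq), from chrX:71663417-71663666 on the plus strand, chr10:115185023-115185272 on the minus strand and chrX:16619448-16619697 on the plus strand. Capitals mark the letters of promoter motifs, searched on either strand and named after the sequences.
Gpr50: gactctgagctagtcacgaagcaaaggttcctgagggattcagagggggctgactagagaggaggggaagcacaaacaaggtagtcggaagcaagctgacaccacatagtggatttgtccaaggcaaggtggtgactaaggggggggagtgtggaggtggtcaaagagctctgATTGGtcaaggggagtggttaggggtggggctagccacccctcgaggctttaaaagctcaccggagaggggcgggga
Tph2: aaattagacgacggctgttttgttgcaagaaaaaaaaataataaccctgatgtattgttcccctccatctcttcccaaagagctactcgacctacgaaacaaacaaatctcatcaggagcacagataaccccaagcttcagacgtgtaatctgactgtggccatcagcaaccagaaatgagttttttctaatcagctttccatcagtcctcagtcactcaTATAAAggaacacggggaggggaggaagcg
Maoa: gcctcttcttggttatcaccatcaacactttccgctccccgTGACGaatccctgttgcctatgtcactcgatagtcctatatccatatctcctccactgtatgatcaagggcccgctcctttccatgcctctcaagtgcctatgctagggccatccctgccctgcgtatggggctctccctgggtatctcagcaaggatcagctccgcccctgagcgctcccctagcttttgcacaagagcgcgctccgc
The *Gpr50* sequence held a CCAAT box, searched as its name spells it, which 33.8% of 32851 RefSeq promoters of the same length held. The *Tph2* sequence held a TATA box, searched as TATAAA, that began 30 bases before the start (position -30), and 12.4% of promoters held this motif. The *Maoa* sequence held TGACG, the core of a cAMP response element, which 17.8% of promoters held. An E-box, searched as CACGTG, matched none of the 3 sequences and was held by 6.02% of promoters. The whole cAMP response element, TGACGTCA, which overlaps its core, matched none either and was held by 1.55%. *Gpr50* and *Tph2* thus had no marked motif in common within these windows. Their GC content was 56.8% and 43.6%, on either side of the median of 52.4% over all promoters.

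Among genes that passed the filter, read from their brightest probe sets with floored signals, *Gpr50* had the lowest signal log ratio of 11587 (-4.97) and *Tph2* had the second lowest (-2.90). Without the floor, they held ranks 2 and 14 from the lowest. Of 4241 genes with a WT signal of at least 1000, 4 were at least 4-fold higher in WT: *Gpr50*, *Tph2*, *Atp6v0d2* and *Clcn5*. *Atp6v0d2*, a subunit of the vacuolar proton pump, had 1566 in WT against 301.0 in Tg. *Clcn5*, an endosomal chloride and proton exchanger, had 1129 in WT against 278.5 in Tg, whereas its other 3 probe sets had signal log ratios from -0.21 to 0.36. The latter genes were named after their values were seen. *Gpr50* and *Tph2* were chosen for their pattern on these arrays, so nothing is read from their ranks or their place among these 4 genes.

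**Figure D2:**
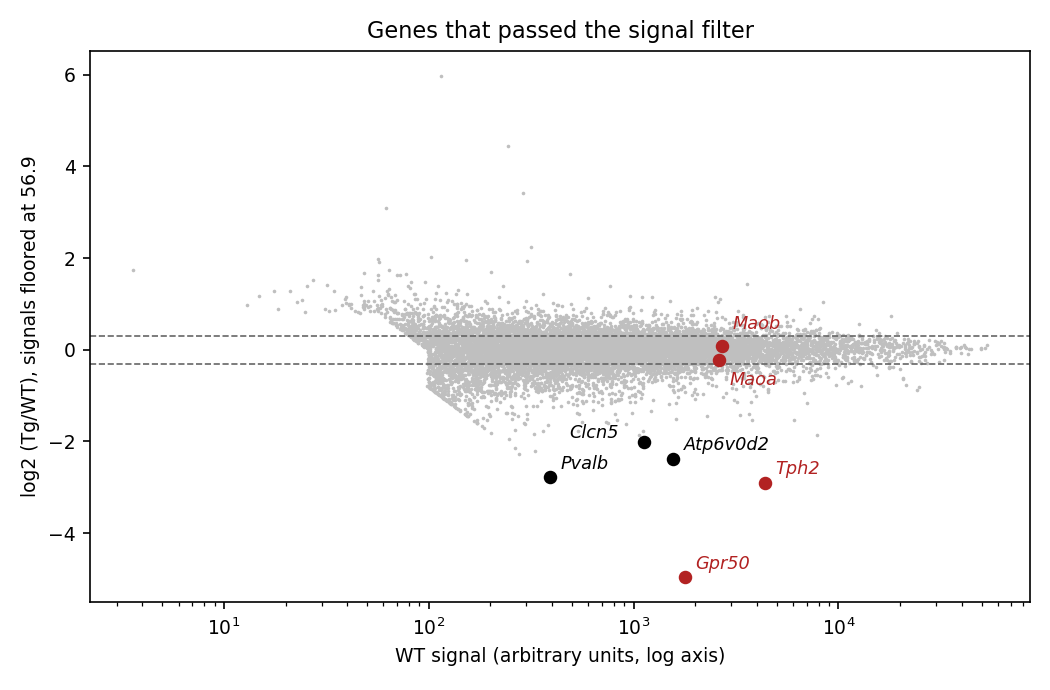
Signal log ratio with signals floored at 56.9, against the WT signal on a log axis, for 11587 genes that passed the filter, 1 point per gene. Dashed lines mark 0.3 and -0.3. *Gpr50* at -4.97 and *Tph2* at -2.90, both chosen for their pattern on these arrays, lie below all other genes. *Maoa* and *Maob* lie within the lines.

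Likeness to *Gpr50* and *Tph2* was measured as the Euclidean distance of log2 signals, floored at 56.9, over the 2 arrays. None of the other genes came close to *Gpr50*: the nearest was *Pvalb*, the muscle protein parvalbumin, at a distance of 2.19 with signals of 391.0 in WT against 49.6 in Tg. *Kcnn4*, *Clcn5*, *Plppr4* and *Atp6v0d2* followed at distances from 2.27 to 2.41. On the other probe set, the signal log ratio was -1.10 for *Kcnn4*, -0.62 for *Plppr4* and -2.32 for *Atp6v0d2*. The nearest to *Tph2* was *S100a8*, a calcium-binding protein of neutrophils, at 1.07, with 2294.3 in WT against 847.8 in Tg. *Col5a3*, a collagen chain, *Gpnmb*, a glycoprotein of lipid-laden macrophages, *Oxtr*, the oxytocin receptor, and *Tfr2*, a transferrin receptor, followed at distances from 1.14 to 1.33. Their signal log ratios lay between -1.07 and -1.52, less far from 0 than that of *Tph2*. These are the values of the brightest probe sets. The other probe set had -0.19 for *Gpnmb*, -0.50 for *Col5a3*, -0.59 for *Oxtr* and -0.92 for *Tfr2*, and *S100a8* has no other. With 2 arrays, such likeness rests on a single contrast. *Gpr50* and *Tph2* were chosen on that contrast, so nothing is read from how far other genes lie from them.

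Genes beside *Gpr50* and *Tph2* on their chromosomes are given as a description. Both members were chosen for their pattern and had the lowest floored ratios of all genes that passed. No neighbour could therefore lie as low, and nothing is read from that gap. Of the 5 nearest genes with a probe set on each side of *Gpr50*, 7 passed the filter, with signal log ratios from -0.97 to 0.11. The closest, *Hmgb3* (a chromatin protein), at 103 kb, had 725.0 in WT against 779.2 in Tg, and *Vma21*, an assembly factor of the proton pump at 143 kb on the other side, had 2461.5 in WT against 2074.6 in Tg. Of the 7 that passed, 2 were under -0.3 and 0 over 0.3, beside 16.9% and 16.6% of all genes that passed. Under -0.3 were *Prrg3* at -0.43 and *Mamld1*, the fifth gene on its side, at -0.97, the latter with signals of 123.5 in WT against 63.0 in Tg. *Cd99l2*, *Mtmr1* and *Mtm1* lay between -0.17 and 0.11, and *Cnga2*, *Magea4* and *Gabre* were near background.
Of the 10 genes around *Tph2*, 7 passed as well, with signal log ratios from -0.56 to 0.65. On the side of lower coordinates, *Trhde* lies at 276 kb. The other genes of that side, *Kcnc2* and *Atxn7l3b* among them, lie at 2150 to 2970 kb. *Tbc1d15*, a Rab GTPase-activating protein whose gene lies 12.8 kb from *Tph2*, had 2905.7 in WT against 3372.9 in Tg. *Rab21*, an endosomal GTPase 105 kb away, had 1922.7 in WT against 1839 in Tg. Of the 7 that passed here, 2 were under -0.3 and 1 over 0.3, beside 16.9% and 16.6% of all genes that passed. Under -0.3 were *Kcnc2* at -0.56 and *Tmem19* at -0.33, and over 0.3 was *Thap2* at 0.65, with 303.4 in WT against 476.4 in Tg. *Atxn7l3b* and *Zfc3h1* had 0.06 and 0.16, and *Trhde*, *Caps2* and *Glipr1l2* were near background. In the plot of neighbouring genes both members lie below the genes on either side, which their choice on these arrays fixed beforehand.

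**Figure D3:**
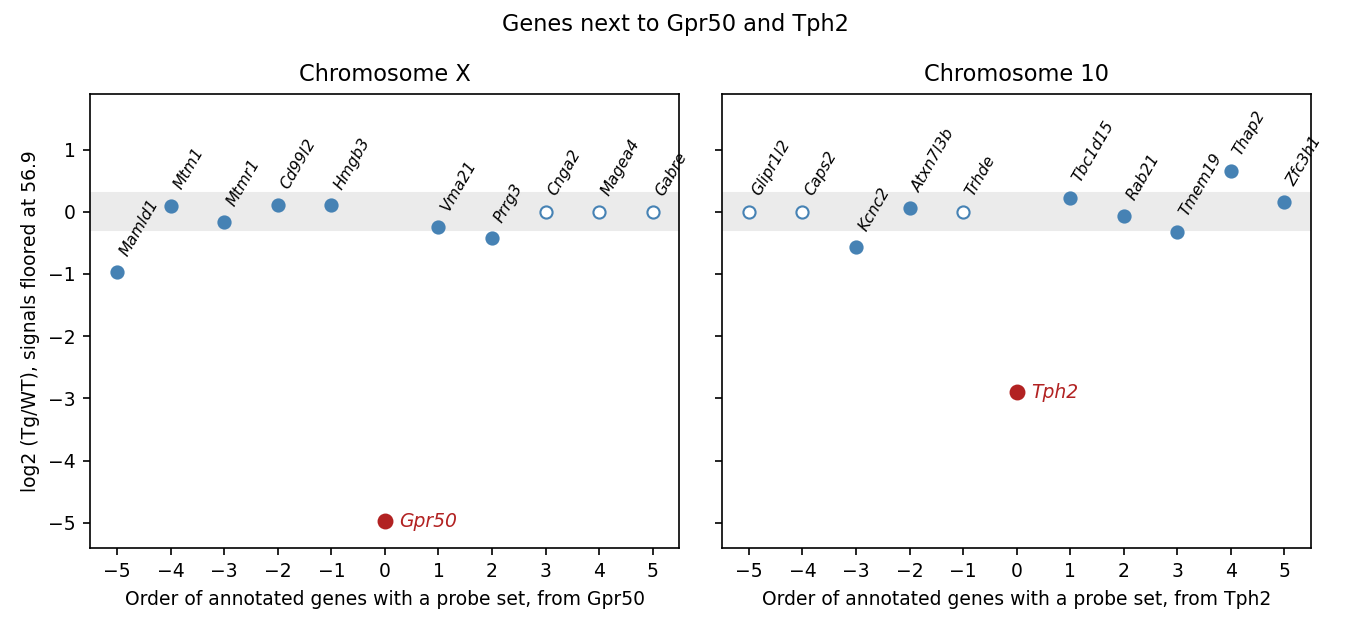
Signal log ratio with signals floored at 56.9 for *Gpr50*, *Tph2* and the 5 nearest annotated genes with a probe set on each side, in chromosomal order, not to the scale of distance. Filled circles passed the filter, open circles were near background on both arrays, and the grey band covers -0.3 to 0.3. The members lie at -4.97 and -2.90, and all neighbours lie at or above -0.97.

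The monoamine oxidases, which break down serotonin and other amines, were bright on both arrays. Their genes lie next to each other on chromosome X, 21.5 kb apart (*Maoa* at 16619698 to 16687812, *Maob* at 16709281 to 16817366). *Maob* had 2712.7 in WT against 2884.1 in Tg, a signal log ratio of 0.09. *Maoa* had 2620 in WT against 2239.8 in Tg on its brighter probe set (-0.23), and 508.4 in WT against 322.7 in Tg on its dimmer one (-0.66).
The *Maoa* probe sets thus lay on either side of the threshold of -0.3, with a gap of -0.43 between them. The pooled SD of this ratio over probe sets that read the same gene was 0.41. That SD measures single probe sets around the mean of their gene, and gaps between 2 of them spread more widely. Over 5415 pairs of passing probe sets at least 1 log2 unit apart, the dimmer one had a lower signal log ratio by a median of -0.15. The poly-A controls, bacterial RNAs labelled with the samples, had lower ratios at the 5' than at the 3' end in 8 of 8 pairs, with a median of -0.55. The pairs read 4 control RNAs, each 2 times, on the same 2 arrays. Where the *Maoa* and *Gpr50* probe sets lie along their transcripts was not analysed here, and the part of this difference in their values was not tested. For *Gpr50* the dimmer probe set had the higher ratio of the pair, by 1.34. Both of its Tg signals lay under the floor of 56.9, so the sizes of these ratios and the gap between them are poorly determined.

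The 5 members near background gave no usable difference. *Ddc*, the decarboxylase of the second step of synthesis, had 44.3 in WT against 41.8 in Tg on its brighter probe set and 13.6 and 13.8 on the other. *Slc6a4*, the serotonin transporter, had 83.0 in WT against 75.7 in Tg, above the 95th percentile of the olfactory and vomeronasal receptors on both arrays but under the filter. These signal log ratios ran from -0.13 to 0.02.
The receptors among the members had larger ratios at such signals. *Htr2b*, a serotonin receptor of fat and other peripheral tissues, had 93.4 in WT against 37.4 in Tg (-1.32), and the WT signal was just under the filter. *Mtnr1a*, a melatonin receptor and relative of *Gpr50*, had 6.6 in WT against 23.9 in Tg (1.86), and with the floor the difference was 0. Of the 6606 genes near background on both arrays, 42.7% were past 1 or -1, and their 5th to 95th percentile ran from -2.76 to 2.78. Both receptors lay within this range.

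The other genes of serotonin, melatonin and tryptophan metabolism were taken from 6 lists with 57 genes in all, of which 51 had a probe set and 22 passed the filter. Without the members, 18 passed, with a median signal log ratio of -0.01 beside 0.02 over all genes that passed. Of these 18, 4 genes (22.2%) were over 0.3 and 0 were under -0.3, beside 16.6% and 16.9% of all genes.
In the list of synthesis, transport and breakdown, 8 of 15 genes passed. *Aldh2*, an aldehyde dehydrogenase that acts after the oxidases, had 3236.5 in WT against 5861.1 in Tg (0.86), but its 4 dimmer probe sets, with signals of at most 196.7, lay between -0.63 and 0.64. *Sult1a1*, a sulfotransferase and the brightest of the list, had 8832.2 in WT against 10772.3 in Tg (0.29). *Slc18a1* and *Slc18a2*, which load amines into vesicles, were near background on both arrays. *Slc7a5* and *Slc3a2*, which together carry tryptophan and other large amino acids into cells, had 0.29 and 0.07.
Tetrahydrobiopterin (BH4) is the cofactor of tryptophan hydroxylase, and 6 of 8 genes that make or recycle it passed. *Pts*, a synthase of this cofactor, had 1443.4 in WT against 1891 in Tg (0.39). *Gch1*, which starts its synthesis, had 212.7 in WT against 192.4 in Tg on the brighter probe set and 96.8 and 158.2 on the other. *Qdpr*, which recycles it and was the brightest of the list, had 9508 in WT against 9016.1 in Tg (-0.08).

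Receptors of serotonin were near background with 1 exception. Of 14 genes, 13 had a probe set, and *Htr1b* alone passed the filter, with 120.2 in WT against 137.1 in Tg (0.19). In the list of melatonin synthesis and receptors, 3 of 5 genes had a probe set listed with their symbol alone. *Aanat*, the enzyme that precedes melatonin, had 34.8 in WT against 79.8 in Tg, under the filter like *Mtnr1a*. *Gpr50* was thus the single one of these 3 genes to pass.
In the kynurenine branch, the main other use of tryptophan, 3 of 12 genes passed. Of these 3, 2 (66.7%, beside 16.6% of all genes) were over 0.3 and 0 were under -0.3. *Kyat3*, an aminotransferase and the brightest of these, had 585.5 in WT against 838.2 in Tg (0.52), and *Kmo*, kynurenine monooxygenase, had 105.4 in WT against 145.3 in Tg (0.46). *Kyat1*, the remaining gene that passed, had 204.6 in WT against 207.6 in Tg (0.02). Its second-brightest probe set had 165.9 in WT against 134.7 in Tg (-0.30). *Ido1*, which opens the tryptophan ring, had 71.2 in WT against 59.5 in Tg, under the filter.
Proteins known to bind GPR50 are encoded by *Kat5*, *Rtn4* and *Tgfbr1*, and the brightest probe set of each lay between -0.12 and -0.09. The second-brightest probe sets of *Kat5* and *Rtn4* had -0.44 and -0.74. *Rtn4*, the Nogo membrane protein, had 23215.6 in WT against 21409.9 in Tg. *Tgfbr1*, a TGF-β receptor, had 1569.8 in WT against 1466.4 in Tg, and its dimmer probe sets had -2.62 at signals of 147.3 in WT against 23.9 in Tg and -0.59 at signals under the filter.

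**Figure D4:**
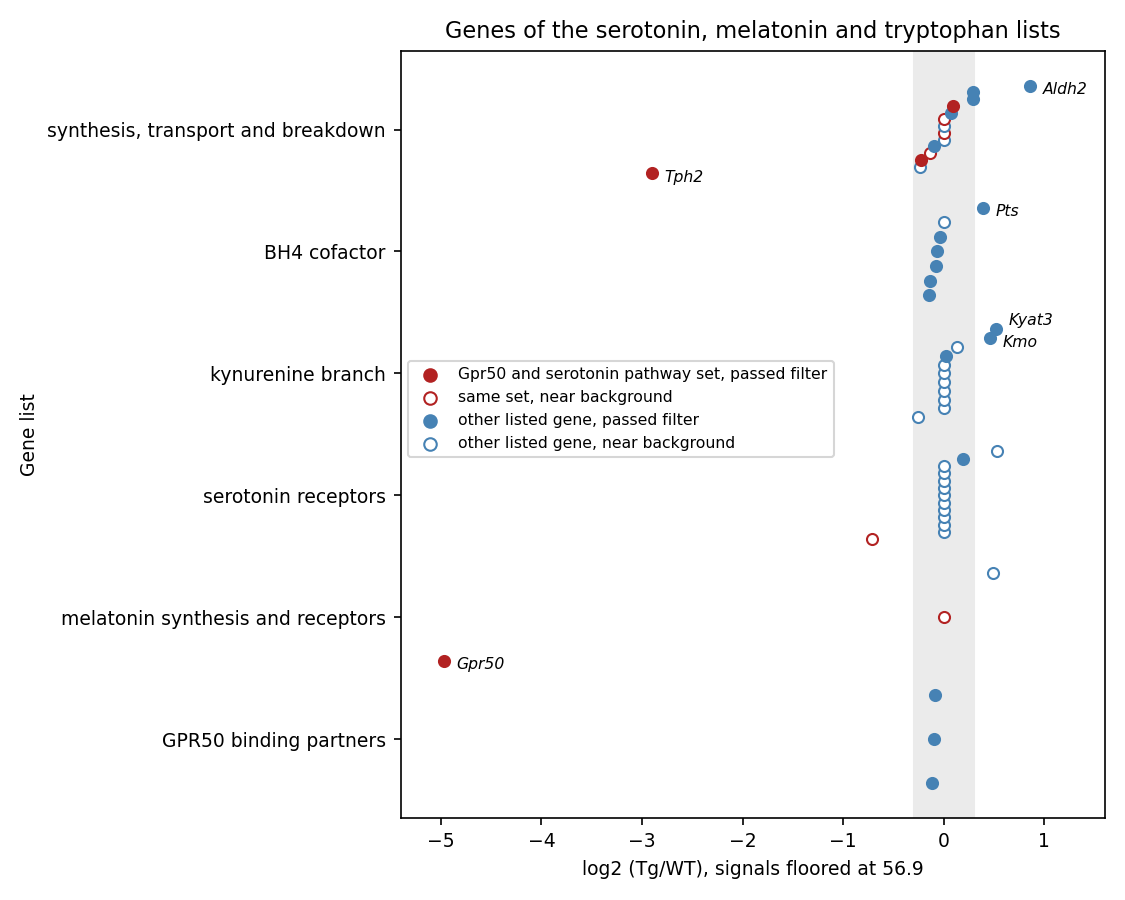
Signal log ratio with signals floored at 56.9 for 51 genes of 6 lists, 1 point per gene read from its brightest probe set, with filled circles for genes that passed the filter and open ones for genes near background. The grey band covers -0.3 to 0.3, and height within a list has no meaning. *Gpr50* and *Tph2* lie far to the left, and the 4 labelled genes to the right of the band lie between 0.39 and 0.86.

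Markers of the tissue and of other cells were read in the same way. All 7 listed markers of mature adipocytes passed, with a summed signal of 191298 in WT against 198822 in Tg, and *Fabp4*, the brightest, had 51832 and 53338.8. Of these, 1 was over 0.3, *Lipe*, hormone-sensitive lipase, at 0.53, and 1 was under -0.3, *Lep*, leptin, with 20770.4 in WT against 13305.1 in Tg (-0.64). Of 8 macrophage markers, all passed and 2 were under -0.3, *Cd68* at -1.13 and *Itgax* at -1.35, with sums of 45756.8 in WT against 38667.5 in Tg (*Lyz2*, the brightest, at -0.24). The 2 of 8 are 25%, beside 16.9% of all genes, and the other 6 lay between -0.28 and 0.18, with *Mrc1* near 0 and *Cd14* and *Cd163* over 0. The lower values of *Cd68* and *Itgax* share the direction of *Gpr50* and *Tph2*, and the part of macrophages in these was not tested. In bulk tissue, fewer cells of a type and less RNA per cell cannot be told apart.
Of 10 mast cell markers, cells that can hold serotonin, 7 passed, 4 of which (57.1%, beside 16.6% of all genes) were over 0.3 and 0 under -0.3, with sums of 2718 in WT against 3280.5 in Tg (*Cpa3*, the brightest, at 0.37). The others over 0.3 were *Tpsb2* at 0.42, *Fcer1a* at 0.46 and *Hdc*, which makes histamine, at 1.30. *Hdc* passed the filter in Tg alone, with 48.3 in WT against 119.2 in Tg, or 1.07 with the floor. Its other probe set was near background on both arrays. Of 5 listed markers of platelets, cells that carry serotonin, 3 passed, of which 1 (33.3%, beside 16.6% of all genes) was over 0.3 and 0 under -0.3. The gene over 0.3 was *Itga2b*, with 207.0 in WT against 299.0 in Tg (0.53). The list summed to 6412.6 in WT against 6035.9 in Tg, most of it *Pf4*, and *Gp9* and *Gp6* were near background.
For tissues in which *Gpr50* and *Tph2* are best known, most markers were near background on both arrays. Of 9 listed markers of neurons and sympathetic nerve, 3 passed, with sums of 605.8 in WT against 837.9 in Tg, and *Snap25*, *Syt1*, *Tubb3* and *Th* were near background on both arrays. Of the 3 that passed, 2 (66.7%, beside 16.6% of all genes) were over 0.3 and 0 under -0.3. *Stmn2*, the brightest, was higher in Tg, with 255.9 in WT against 443.9 in Tg. *Dbh* had 55.7 in WT against 104.8 in Tg (0.91), but another of its probe sets had 98.4 in WT against 25.2 in Tg (-1.97). *Rbfox3* passed at 0.29. Of 8 listed pituitary and endocrine markers, *Pomc* alone passed, with 139.8 in WT against 73.4 in Tg (-0.93). Its other probe set was near background, with 20.2 in WT against 26.2 in Tg. The other 7 genes, *Gh*, *Prl*, *Cga* and *Tshb* among them, were near background. The list summed to 342.4 in WT against 246.3 in Tg, with the signals of those 7 genes included. Of 4 genes listed as Schwann cell markers 3 passed, and the list summed to 1052 in WT against 1247.2 in Tg. Over 0.3 were 2 of the 3 (66.7%, beside 16.6% of all genes), *Mbp*, the brightest, at 0.37 and *S100b* at 0.48. Under -0.3 was 1 of the 3 (33.3%, beside 16.9%), *Mobp*, which is named for oligodendrocytes and not for Schwann cells. It had 109.9 in WT against 3.9 in Tg, or -0.95 with the floor, and its other probe sets were near background on both arrays. *Sox10*, the gene of this list that did not pass, had 73.8 in WT against 92.3 in Tg on its brightest probe set (0.32). Another of its probe sets was above the filter in WT and went the other way, with 107.3 in WT against 54.3 in Tg (-0.98). Of 6 listed ovary markers, *Gdf9* alone passed, with 143.1 in WT against 106.8 in Tg (-0.42). The sums were 349.1 in WT against 309.2 in Tg, with the 5 genes near background included.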

How the data were processed

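The deposited intensity of each probe set was calculated by the authors in GeneChip Operating Software, and the submitters' processing notes name MAS5; each array had a trimmed mean of 500. Scanner files and detection calls were not analysed here, and no probe set is listed with *Plin1* alone, so the transgene was not checked. Symbols came from the platform annotation, updated through RefSeq gene IDs (GRCm38.p6): of 45037 probe sets other than controls, 34945 had 1 symbol, 932 several and 9160 none. A gene was read from the probe set with the highest mean log2 signal. Ratios used no further scaling or pseudocount, with the study's threshold of 0.3. There is no test with 1 array per genotype, and the number of arrays limits the precision.

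The members and lists were chosen with earlier results of these data known. Every member was named, with pathway list genes past 0.3 or -0.3, the brightest gene of each list, neighbours and genes nearest in pattern, and other markers were named after their values were seen. Alternatives changed the scaling (median centring, quantile, loess with a span of 0.3), low signals (pseudocount 25.1, floor 56.9), the filter (none, 470.5) and the choice of probe set. The code that counts genes past the threshold was checked on simulated signals with known changes, which tests no count reported here. Python 3.11.15, numpy 2.4.6, pandas 2.3.3, statsmodels 0.14.6 and matplotlib 3.10.9 were used.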

Additional observations from a re-analysis of the deposited data

How the results depend on the processing

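*Gpr50* stayed lower in Tg under all 10 alternatives, with a signal log ratio of -4.87 with the pseudocount, -4.97 with the floor, -4.94 as the median over its probe sets and -4.27 on the second-brightest one. *Tph2* stayed between -2.91 and -2.82 under the 9 alternatives that gave it a value, since it has no second probe set. Without the filter, 1 of 9 member genes was over 0.3 (*Mtnr1a*) and 3 were under -0.3 (*Htr2b* joining *Gpr50* and *Tph2*); of 51 pathway genes, 12 were over and 11 under (23.5% and 21.6%), beside 4468 and 4548 of all 18193 genes. On second-brightest probe sets, 1 of 9 pathway genes was over and 6 were under, *Maoa* among them, beside 17.0% and 25.8% of 5260 genes. With the median over probe sets, 5 of 22 pathway genes were under, again with *Maoa*, beside 20.5% of all genes. Under that setting 3 of 22 (13.6%, beside 14.9% of all genes) were over 0.3: *Htr1b*, *Kmo* and *Kyat3*. *Aldh2* and *Pts* were no longer over 0.3. Over all genes that passed, median centring gave 24.9% over 0.3 and 13.0% under -0.3. No paired analysis was possible because each genotype has 1 array and the labels give no replicate numbers, and for the same reason no replicate could be left out.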
